A study of Danio rerio with 10 samples.

Results

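The cells described here were midbrain and mid/hindbrain boundary cells of zebrafish embryos at the start of somite formation. They were chosen by the UMIs (unique molecular identifiers, each one a counted RNA molecule) of 8 genes. A cell was taken if it had at least 1 UMI in at least 2 of the 5 marker genes en2a, en2b, pax2a, wnt1 and fgf8a, at least 1 UMI of the neural progenitor genes sox19a or sox21a, and 0 UMIs of rx3, which marks the eye field. Of 16837 cells that passed quality control in 10 embryos, 1268 (7.53%) met this rule. Since the choice used measured counts, levels of these 8 genes in the chosen cells are a description, as is every comparison of the chosen cells with other cells.

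The mid/hindbrain boundary forms in the neural plate where the anterior domain of otx genes meets the posterior domain of gbx genes. The boundary works as an organizer: wnt1 is made on its midbrain side and fgf8a on its hindbrain side, and the secreted proteins pattern the midbrain in front and the cerebellum behind. The engrailed genes (en2a, en2b) and the paired box genes (pax2a, pax5) encode transcription factors of this territory, and the hairy-related repressors her5 and her11 are known in zebrafish to keep its cells from becoming neurons. Fgf signals are read out by induced feedback genes such as the sprouty genes, dusp6 and the Ets factors etv4 and etv5b.

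Whole embryos of the Tubingen strain were dissociated singly, and each gave 1 single-cell library, so the embryo is the replicate. There were 4 wildtype embryos, 3 dact1/2 mutants, which carry deletions with premature stops in both genes of the Dact adapters of Wnt signaling, presumed to truncate the proteins, and 3 gpc4 mutants, which carry an insertion allele of the glypican gpc4. The labels give the stage as 3 somites and the paper as 4 somites. Mutants were picked by a short body axis and not by genotyping, and no tissue was sorted or treated.

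The deposited matrices held 21980 droplets, and the quality-controlled cells of each embryo held between 10388568 and 26475500 UMIs. The chosen cells gave between 1323818 and 8433895 UMIs per embryo. Wildtype replicate 1 stood apart from all other embryos. Over log2 CPM (the usual scaling of a gene's UMIs by all UMIs of the summed cells) of the 2000 most variable genes, its distance to the other wildtype embryos was 75.0 to 77.4, against 39.1 to 43.1 among wildtype replicates 2 to 4, and its distance to mutants was 70.6 to 79.7. Gene levels were tested against wildtype replicates 2, 3 and 4, with the count for all 4 wildtype embryos given beside it. Cells of different embryos shared at most 3 barcodes for any of the 45 pairs of libraries.

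The rule took deep cells more readily than shallow ones. The chosen cells had a median of 15829.5 UMIs, all quality-controlled cells had 5668 and the other cells with sox19a or sox21a UMIs (SoxB cells below) had 7594. To measure how often free RNA or doublets meet the rule, it was applied to 637 cells with UMIs of both gata1a and tal1, the transcription factors of blood precursors. Of these blood precursor cells, which had a median of 6606 UMIs, 45 (7.06%) had UMIs in at least 2 marker genes and 31 (4.87%) met the whole rule. These 31 cells are among those described, 2.44% of them, and were deep, with a median of 28415 UMIs. When every cell was thinned to 1500 UMIs, 170 cells met the rule (1.01% of all cells), while 1 blood precursor cell did (0.157%).

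Many cells met the rule on few UMIs. Exactly 2 marker genes were found in 625 cells (49.3%), 3 in 365, 4 in 256 and all 5 in 22. Cells with 2 marker genes had a median of 4 marker UMIs, and 153 of them (24.5%) had 1 UMI in each. Cells with 3 had a median of 10 marker UMIs and those with 4 or 5 had 18. Just outside the rule were 1595 SoxB cells without rx3 and with a single marker gene, with a median of 1 marker UMI, and 210 cells that met all but the exclusion of rx3. Scaled in the same way within each cell, the 5 markers had a median of 339 in cells with 2 marker genes, 653 with 3 and 897 with 4 or 5, against 204 in the cells with 1.

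Among the chosen cells en2b was found most often, in 1028 cells (81.1%), then pax2a in 928 (73.2%), en2a in 761 (60.02%) and fgf8a in 641 (50.6%). The Wnt ligand gene wnt1 was found in 121 cells (9.54%). The largest combinations were en2a, en2b, pax2a and fgf8a (203 cells), en2a, en2b and pax2a (195), en2a with en2b (161), en2b with pax2a (153) and pax2a with fgf8a (145). Both engrailed genes were absent from 155 cells. In these, the share with her5 was 5.16%, against 35.6% of the 1113 cells with an engrailed gene, although they were deeper (median 21862 against 14790 UMIs). Their summed level of 13 hindbrain genes was 568 CPM against 322, and that of preplacodal and otic genes was 393 CPM against 264. Of the 155 cells, 145 had pax2a and fgf8a alone and 10 had wnt1.

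Levels of the marker genes differed between embryos within a genotype. The level of en2b was 123, 236, 218 and 250 CPM in wildtype replicates 1 to 4, 123, 302 and 255 CPM in the dact1/2 mutants and 93.0, 219 and 240 CPM in the gpc4 mutants. The groups overlapped, and the embryo labelled replicate 1 was the lowest of each group. For en2a the 4 wildtype embryos lay between 91.5 and 122 CPM, the dact1/2 mutants between 45.3 and 110 CPM and the gpc4 mutants between 37.0 and 97.5 CPM. Levels of pax2a were 96.6 to 165 CPM in wildtype, 58.2 to 103 CPM in dact1/2 mutants and 56.4 to 119 CPM in gpc4 mutants. For fgf8a they were 54.6 to 124, 55.0 to 65.1 and 59.4 to 89.7 CPM. Wildtype replicate 1 had the highest en2a, pax2a and fgf8a of the 10 embryos, and its wnt1 was 11.5 CPM against 3.33 to 4.56 CPM in the other wildtype embryos, 3.32 to 5.59 CPM in dact1/2 mutants and 1.74 to 7.86 CPM in gpc4 mutants. The SoxB gene sox19a lay between 218 and 384 CPM over the 10 embryos, and sox21a between 73.1 and 182 CPM.

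Genes of the territory that the rule did not use were checked against the label. The boundary repressor genes her5 and her11 averaged 45.7 ± 23.2 CPM and 25.7 ± 12.8 CPM (SD, n = 10 embryos) in the chosen cells, and 7.29 ± 5.91 CPM and 6.64 ± 4.88 CPM in the other SoxB cells. Both were higher in the chosen cells in all 10 embryos. The same held for pax5, at 20.7 ± 8.37 CPM against 3.36 ± 1.83 CPM, for the dorsal midbrain gene pax7a, at 23.3 ± 10.1 CPM against 6.94 ± 2.70 CPM, for wnt8b, at 23.1 ± 10.3 CPM against 9.53 ± 2.45 CPM, and for en1b, at 7.92 ± 4.00 CPM against 1.91 ± 2.197 CPM. Other genes of the region were at similar levels on both sides. The Fgf ligand gene fgf17 was at 8.85 ± 3.06 CPM in chosen cells and 11.2 ± 1.54 CPM in other SoxB cells, and pax8 was rare, at 0.927 ± 0.508 CPM. Summed over whole gene lists, the boundary list was at 282 ± 89.8 CPM against 164 ± 37.6 CPM in other SoxB cells. The rhombomere 1 list was at 248 ± 87.0 CPM against 241 ± 34.4 CPM, and the midbrain list at 400 ± 57.6 CPM against 355 ± 48.9 CPM. In the eye field comparison cells described below the midbrain list was at 434 ± 81.9 CPM.

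**Figure D1:**
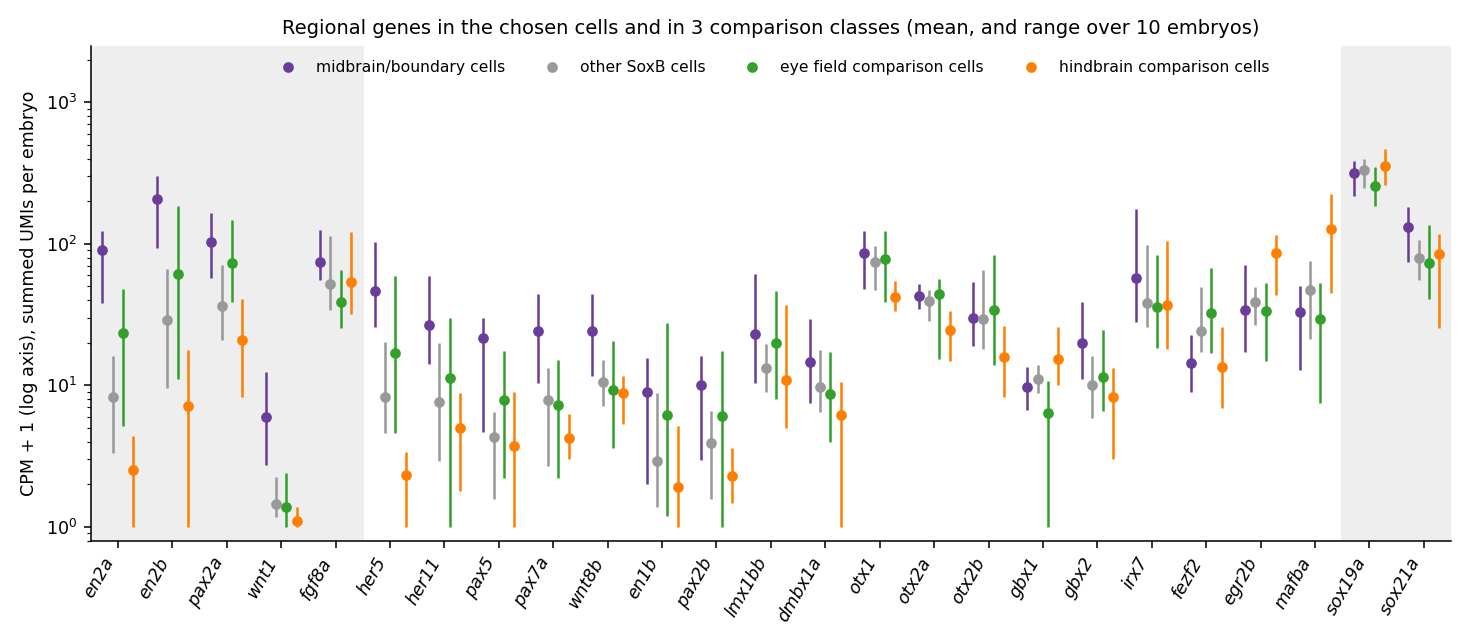
Levels of 25 regional genes (CPM + 1, log axis) in midbrain/boundary cells, other SoxB cells, eye field comparison cells and hindbrain comparison cells. Points are means over 10 embryos and lines run from the lowest to the highest embryo. Genes that the rule used are shaded. Outside the shading, her5, her11, pax5 and pax7a stand highest in the midbrain/boundary cells, while egr2b and mafba, which helped to choose the hindbrain comparison cells, stand highest there.

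By cell, her5 was found in 404 of the 1268 cells (31.9%), her11 in 370 (29.2%), pax5 in 382 (30.1%), the midbrain factor gene dmbx1a in 236 (18.6%) and en1b in 137 (10.8%). Shares in blood precursor cells, which should lack these genes, were 2.83%, 2.98%, 2.04%, 2.04% and 1.41% at a lower median depth. Hindbrain comparison cells, 1187 SoxB cells with at least 2 of 6 hindbrain genes (egr2b, mafba, hoxb1a, hoxb2a, hoxa2b, hoxb3a) that were not chosen, had a median of 12826 UMIs. Their shares were 1.85%, 5.31%, 3.45%, 5.64% and 0.842%. Eye field comparison cells, 435 SoxB cells with rx3 and a UMI of six3a, six3b or lhx2b, were deeper, with a median of 28391 UMIs, and had shares of 16.6%, 17.0%, 11.7%, 20% and 6.67%. The share with her5 was 17.8% in chosen cells with 2 marker genes, 44.9% with 3 and 46.4% with 4 or 5, and 3.89% in the cells with 1.

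Hindbrain and forebrain genes were present in the chosen cells, at lower mean levels than in other SoxB cells. The summed hindbrain list was at 364 ± 62.7 CPM against 442 ± 44.0 CPM. The forebrain and eye field list was at 317 ± 62.4 CPM against 405 ± 63.7 CPM (SD, n = 10). The rhombomere 3 and 5 factor gene egr2b averaged 33.3 ± 16.7 CPM, against 37.6 ± 7.73 CPM in other SoxB cells and 85.2 ± 27.5 CPM in hindbrain comparison cells (SD, n = 10). For mafba the values were 32.2 ± 12.3, 46.6 ± 15.06 and 127 ± 54.3 CPM. These comparison cells were chosen by egr2b and mafba among others, and eye field cells by six3b among others, so their levels there are set by that choice. The forebrain genes fezf2 and six3b were at 13.3 ± 4.80 and 31.8 ± 12.01 CPM in the chosen cells and at 31.6 ± 16.4 and 88.4 ± 25.2 CPM in eye field comparison cells. Genes of other tissues were also found: of the chosen cells, 51.8% had UMIs in at least 2 of 11 genes of paraxial and tail bud mesoderm, 54.5% in at least 2 notochord and prechordal plate genes and 73.9% in at least 2 epidermis and periderm genes. Their median was 2, 3 and 13.5 UMIs per cell for these 3 lists. In summed levels the paraxial list was at 555 ± 167 CPM in the chosen cells and 709 ± 172 CPM in other SoxB cells. The notochord list was at 216 ± 39.9 against 567 ± 157 CPM, and the epidermis list at 2741 ± 724 against 2866 ± 1437 CPM (SD, n = 10). No doublet caller was run.

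Ranked by the log2 ratio of mean CPM to that of the other SoxB cells (10 CPM added to both), the leading genes were en2a and en2b (2.52 each), her5 (1.69), pax2a (1.3), pax5 (1.2), her11 (1.1), pax7a (0.98), the chemokine gene cxcl14 (0.91), wnt8b (0.76), sox21a (0.67), gbx2 (0.60), en1b (0.59), pax2b (0.56), lmx1bb (0.54) and wnt1 (0.52). Below these were calm1a (0.51), irx7 (0.49), the chemokine scavenger gene ackr3a (0.47), fgf8a (0.43), pdzrn4 (0.36), the growth factor gene mdkb (0.32) and her8a (0.30). Among the genes of the lowest ratios were the hatching gland protease gene he1.1, rx3, the hypothalamic factor gene nkx2.4b, the eye field gene lhx2b, pax6b and the Fgf receptor gene fgfr3.

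The rule's 2 ligand genes, wnt1 and fgf8a, divided the chosen cells as follows, as a description. Both genes were found in 36 cells, wnt1 without fgf8a in 85 and fgf8a without wnt1 in 605. The 85 cells with wnt1 alone had otx UMIs (otx1, otx2a or otx2b) in 95.3% and gbx UMIs (gbx1 or gbx2) in 11.8%, and her5 and her11 were found in 69.4% and 62.4% of them. In the 605 cells with fgf8a alone, otx UMIs were found in 66.1%, gbx UMIs in 43.6%, her5 in 19.5% and her11 in 21.2%, at a greater depth (median 22837 against 10769 UMIs). Blood precursor cells had otx UMIs in 14.1% and gbx UMIs in 16.8%. In the 36 cells with both ligand genes, at a median of 36121.5 UMIs, her5 was found in 63.9%.

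To compare the sides of the boundary with a fit over embryos, cells with otx and no gbx UMIs (the otx class, 627 cells, 49.4%) were set against those with gbx and no otx UMIs (the gbx class, 129 cells, 10.2%). Another 280 cells (22.1%) had both, at a median of 40615 UMIs, and 232 had neither. The 2 classes had near depths (medians of 14374 and 12307 UMIs). UMIs were summed per embryo and class and tested with the quasi-likelihood test of edgeR with the embryo as a block and Benjamini-Hochberg adjustment. Calls needed both an adjusted p below 0.1 and a log2 fold change beyond 0.58 in either direction. Of 6986 genes, 66 were called (0.945%), 27 higher in the gbx class and 39 higher in the otx class. The 5 genes of the split and the 8 of the rule are not counted. Without wildtype replicate 1 there were 72 calls.

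In the otx class, midbrain and forebrain genes were higher. The repressor gene her5 was at 39.1 to 154 CPM in the 10 embryos (mean 74.1 CPM) in the otx class and at 0 to 24.6 CPM (mean 10.7 CPM) in the gbx class. The 2 ranges did not overlap (log2 fold change −2.86 ± 0.24 (SE), adjusted p = 7.94e-08 by edgeR). The same was true of mab21l2, an eye and tectum gene, at 115 to 294 CPM against 4.00 to 63.8 CPM (−2.93 ± 0.27, edgeR adjusted p = 2.00e-07). The midbrain factor gene dmbx1a was at 10.7 to 58.5 CPM in the otx class and was detected in the gbx class of 1 embryo, at 3.71 CPM (−5.63 ± 0.55, edgeR adjusted p = 6.21e-07). Also higher in the otx class were her11 (−2.82), the Wnt ligand genes wnt7ba (−3.09) and wnt8b (−1.05), the platelet-derived growth factor gene pdgfbb (−1.97), the forebrain factor genes six3b (−2.95), fezf2 (−2.97), foxd1 (−2.53) and emx3 (−1.74), mab21l1 (−2.91), irx7 (−1.40), fgfr3 (−0.92) and zgc:101100 (−3.69). Of the forebrain and eye field list 5 of 11 tested genes were higher in the otx class, of the midbrain list 3 of 6, with mab21l2 in both lists, and none of either was higher in the gbx class. Of 6 rhombomere 1 genes, irx7 and fgfr3 were higher in the otx class and irx3a in the gbx class. The forebrain and midbrain lists had median log2 fold changes of −1.51 and −1.64, against 0.00 (−0.00337) over all genes tested.

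In the gbx class, targets of Fgf signaling were higher. The Ets factor gene etv4 was at 51.2 to 131 CPM in the gbx class and 29.2 to 58.4 CPM in the otx class (log2 fold change 0.97 ± 0.17, edgeR adjusted p = 0.00202), and it was higher in the gbx class of 9 of 10 embryos. The ligand gene fgf8a itself, which the rule used, was at 142 ± 43.4 CPM in the gbx class and 55.8 ± 15.7 CPM in the otx class (SD, n = 10), as a description. Its UMIs were found in 65.1% of gbx class cells and 37.6% of otx class cells. The part of this choice by fgf8a in the levels of Fgf targets was not tested. The sprouty genes spry4 (0.68 ± 0.13, edgeR adjusted p = 0.00388) and spry2 (0.89 ± 0.18, edgeR adjusted p = 0.00768), dusp6 (0.69, edgeR adjusted p = 0.0376) and spred2a (0.66, edgeR adjusted p = 0.0779) all encode feedback inhibitors of the pathway. In all, 5 of 15 Fgf pathway genes were higher in the gbx class and 0 lower, with a list median of 0.45. The Ets factor gene etv5b (0.53, edgeR adjusted p = 0.0139) missed the fold threshold, and the inhibitor gene il17rd (0.40, edgeR adjusted p = 0.455) was not called.

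Other genes of the gbx class were the Wnt inhibitor gene notum1a, at 9.60 to 48.7 CPM against 0.885 to 9.62 CPM in the otx class (log2 fold change 2.74 ± 0.37, edgeR adjusted p = 7.48e-05), and en1b, at 31.0 ± 20.7 CPM against 4.24 ± 3.52 CPM (2.60 ± 0.43, edgeR adjusted p = 0.00144). The gene pax5 was at 51.6 ± 33.6 CPM against 19.6 ± 10.3 CPM (1.32 ± 0.27, edgeR adjusted p = 0.00813). In wildtype replicate 1 neither en1b nor pax5 was detected in the gbx class, and both were at their lowest there in the chosen cells as a whole (pax5 at 3.73 CPM against 10.9 to 28.7 CPM in the other 9 embryos). The factor genes sp9 (1.52) and irx3a (1.02), greb1l (0.79) and the otoconial protein gene oc90 (1.118), known from the ear, were higher as well, as was nkx1.2la of the caudal neural list (1.79). No other gene of the spinal cord and caudal neural list, none of 10 hindbrain genes and none of 8 preplacodal and otic genes was called.

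**Figure D2:**
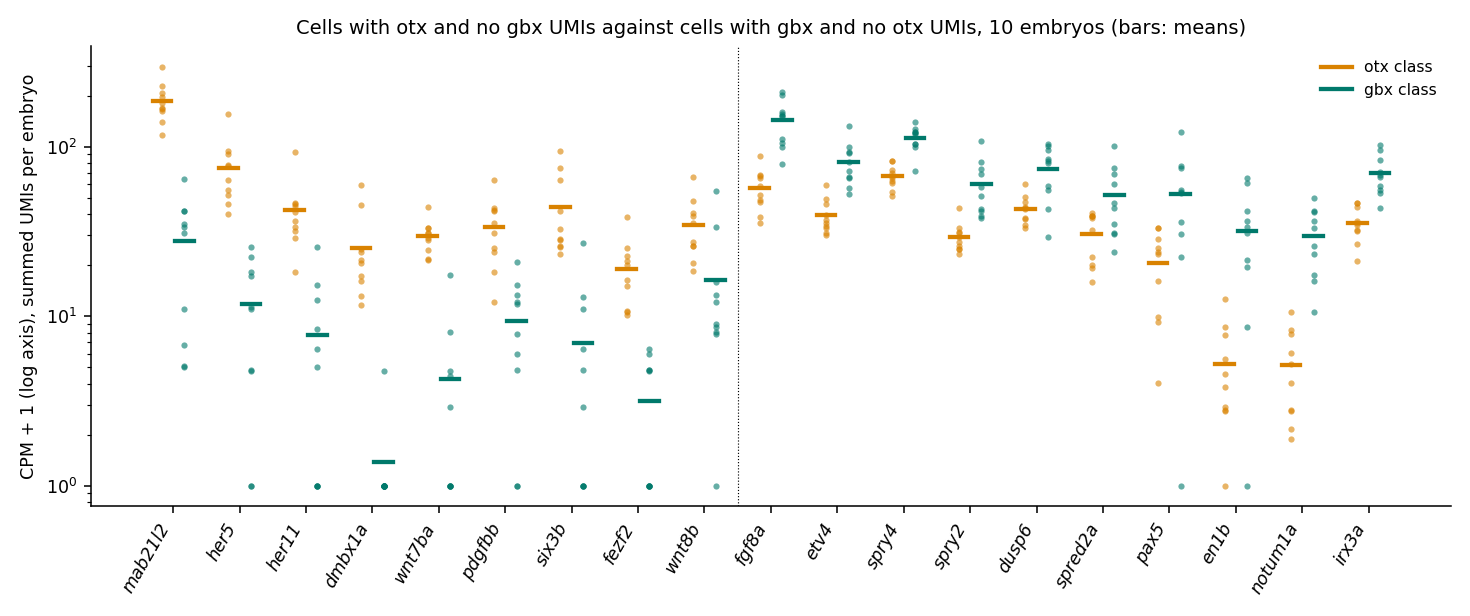
Levels (CPM + 1, log axis) of 19 genes in cells with otx and no gbx UMIs and in cells with gbx and no otx UMIs. Each point is 1 of 10 embryos and bars are means. Genes left of the dotted line, such as her5 and mab21l2, lie higher in the otx class, and fgf8a with the Fgf targets etv4, spry4, spry2, dusp6 and spred2a lies higher in the gbx class. A point at 1 is an embryo with no UMI.

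The share of midbrain/boundary cells was compared between genotypes to ask whether the territory was smaller or larger in embryos with a short axis. It was 7.53% (95% exact binomial interval 6.09 to 9.18%), 6.67% (5.28 to 8.29%), 6.28% (5.31 to 7.38%) and 7.48% (5.91 to 9.31%) of quality-controlled cells in wildtype replicates 1 to 4. In dact1/2 mutants it was 10.99% (9.69 to 12.4%), 8.51% (7.48 to 9.64%) and 6.83% (5.63 to 8.18%), and in gpc4 mutants 7.38% (5.99 to 8.96%), 6.90% (5.78 to 8.15%) and 5.53% (4.53 to 6.66%). Intervals cover counting error only. dact1/2 replicates 1 and 2 lay above every wildtype embryo, replicate 3 lay among them, and the gpc4 mutants overlapped wildtype. The difference was 1.79 percentage points in dact1/2 mutants (8.77 ± 2.09% against 6.99 ± 0.615%, two-sided exact permutation p = 0.114, adjusted p = 0.152 over 4 tests) and −0.39 in gpc4 mutants (6.60 ± 0.960%, exact permutation p = 0.571, adjusted p = 0.571).

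Neither difference passed the test, and the comparison moved with the denominator and with the cells kept. As a share of SoxB cells the chosen cells made up 16.7 to 19.5% in wildtype, 20.3 to 24.2% in dact1/2 mutants (exact permutation p = 0.0286, the smallest that 4 embryos against 3 can give) and 16.0 to 20.7% in gpc4 mutants (exact permutation p = 0.457). With the study's further quality criterion, on genes per UMI, dact1/2 mutants lay at 6.43 to 8.14% and wildtype at 5.70 to 6.35%, with no overlap (exact permutation p = 0.0286). Of the chosen cells, 164 held no more than 1 gene of each of the forebrain, placode, epidermis, paraxial mesoderm, notochord, lateral plate and endoderm lists. Their share was 0.317 to 0.815% in gpc4 mutants and 1.13 to 1.33% in wildtype, with no overlap (exact permutation p = 0.0286), and in dact1/2 mutants the difference turned to −0.24 points (exact permutation p = 0.114). The lowest share, 0.317%, was that of gpc4 replicate 1, whose chosen cells were the deepest, with a median of 30015 UMIs. A limit on genes found can drop deep cells more readily, and the part of depth here was not tested. With every cell thinned to 1500 UMIs the share was 0.846, 1.16, 0.633 and 1.23% in wildtype, 1.26, 1.66 and 0.822% for dact1/2 mutants and 0.634, 0.869 and 0.697% for gpc4 mutants, and the groups overlapped in both comparisons (exact permutation p = 0.343 in each). The depth of the chosen cells varied within each genotype more than between them, from a median of 11169 to 24628 UMIs in wildtype, 9414 to 26260 in dact1/2 mutants and 8570 to 30015 in gpc4 mutants. Over all cells, where the rule plays no part, none of the 8 genes of the rule was called in either mutant by edgeR (0 of 16 tests, with 3 at an unadjusted p under 0.05 in gpc4 mutants, en2b, sox19a and sox21a, and 1 in dact1/2 mutants, sox21a). The smallest adjusted p was that of sox21a in gpc4 mutants (log2 fold change −0.38, adjusted p = 0.120), and DESeq2 called 0 of 16 as well, where sox21a in gpc4 mutants had an adjusted p of 0.0912 at −0.37, short of the fold threshold.

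**Figure D3:**
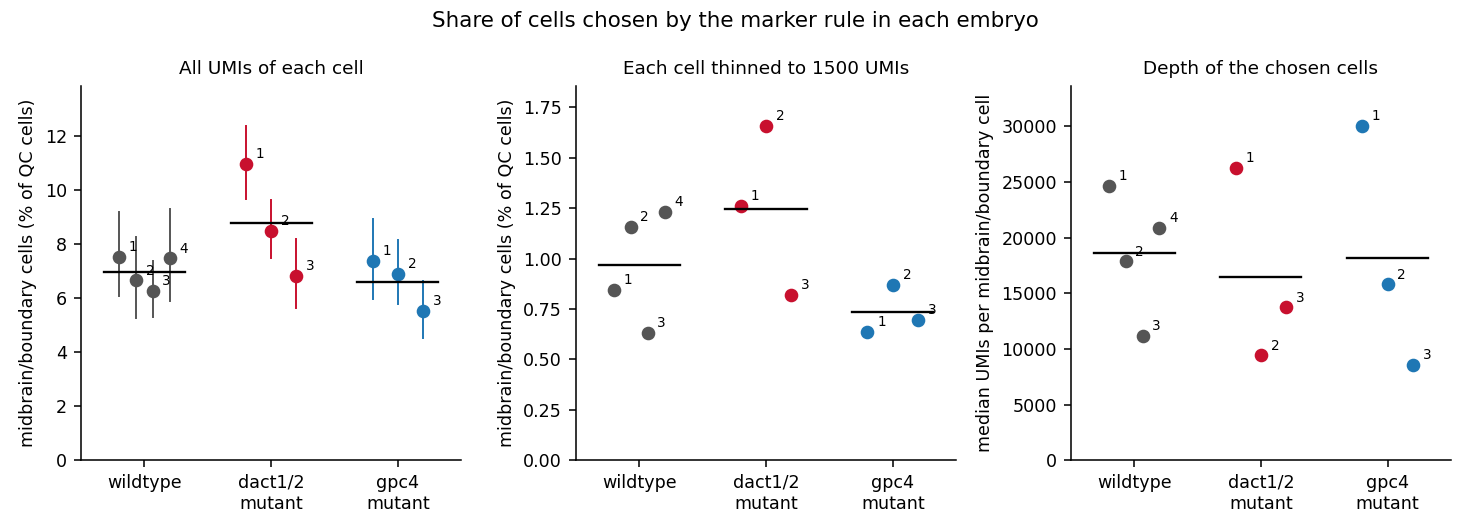
Share of quality-controlled cells that met the rule in each embryo, from all UMIs with 95% exact binomial intervals (left) and after thinning each cell to 1500 UMIs (middle), and the median UMIs of these cells (right). Numbers are replicates and bars are group means. dact1/2 mutant replicates 1 and 2 lie above wildtype in the left panel, at 10.99% and 8.51%, and all groups overlap in the middle panel.

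The balance of the domains on the 2 sides of the boundary was compared as the log2 ratio of otx UMIs (otx1, otx2a, otx2b) to gbx UMIs (gbx1, gbx2) in the chosen cells, a ratio that does not scale with depth. It was 2.15, 2.19, 1.92 and 2.38 in wildtype replicates 1 to 4, while dact1/2 mutants had 2.76, 3.12 and 2.66, and gpc4 mutants had 2.84, 2.40 and 2.96. All 6 mutants lay above all 4 wildtype embryos, with gpc4 replicate 2 just above wildtype replicate 4. The ratio was higher by 0.69 in dact1/2 mutants (2.85 ± 0.24 against 2.16 ± 0.19, SD) and by 0.57 in gpc4 mutants (2.73 ± 0.30), each with an exact permutation p = 0.0286 and an adjusted p of 0.0571 over the 4 tests of shares and ratios, so neither passed 0.05 after adjustment. The mutants were set against the same wildtype embryos, so the 2 differences are not independent.

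On the gbx side the difference lay in gbx2. Its level was 37.6, 23.1, 26.2 and 23.2 CPM in wildtype, 10.8, 16.3 and 15.8 CPM in dact1/2 mutants and 10.2, 12.9 and 12.1 CPM in gpc4 mutants, with no overlap between wildtype and either mutant. It fell in gpc4 mutants (log2 fold change −0.98 ± 0.21 (SE), adjusted p = 0.0846 by edgeR with wildtype replicates 2 to 4). With all 4 wildtype embryos the estimate was −1.13, but gbx2 was not called (edgeR adjusted p = 0.264). The value in dact1/2 mutants was −0.68 ± 0.20 (edgeR adjusted p = 0.276). The second gene, gbx1, was at 6.63 to 12.5 CPM in wildtype, 6.996 to 11.7 CPM in dact1/2 mutants and 5.72 to 10.4 CPM in gpc4 mutants, and these groups overlapped, as did those of otx1, otx2a and otx2b. Cells of the gbx class made up 17.98, 17.3, 12.9 and 17.8% of the chosen cells in wildtype, against 5.11, 3.98 and 13.0% for dact1/2 mutants and 10.8, 10.2 and 10.7% for gpc4 mutants. UMIs of the gbx genes were not specific to the chosen cells. Summed over all embryos, gbx2 was at 17.29 CPM in the chosen cells, 17.96 CPM in blood precursor cells and 7.02 CPM in hindbrain comparison cells. For gbx1 the values were 8.27, 3.95 and 14.3 CPM. The part of free RNA or doublets in the gbx levels and ratios was not tested.

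The ratio was less different over 2 wider sets of cells. Both sets include the chosen cells, and the ratio in the other cells alone was not measured. Over all SoxB cells without rx3 it was higher by 0.29 in dact1/2 mutants and 0.26 in gpc4 mutants (exact permutation p = 0.143 in each), and over all quality-controlled cells by 0.20 (exact permutation p = 0.343) and 0.04 (exact permutation p = 0.886). With at least 3 marker genes required, the differences were 0.80 (exact permutation p = 0.171) and 0.52 (exact permutation p = 0.314), and the groups overlapped. Between 28 and 150 gbx UMIs per embryo stood behind these ratios. Whether fewer gbx cells or less gbx RNA per cell lowered the summed level cannot be told apart here.

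**Figure D4:**
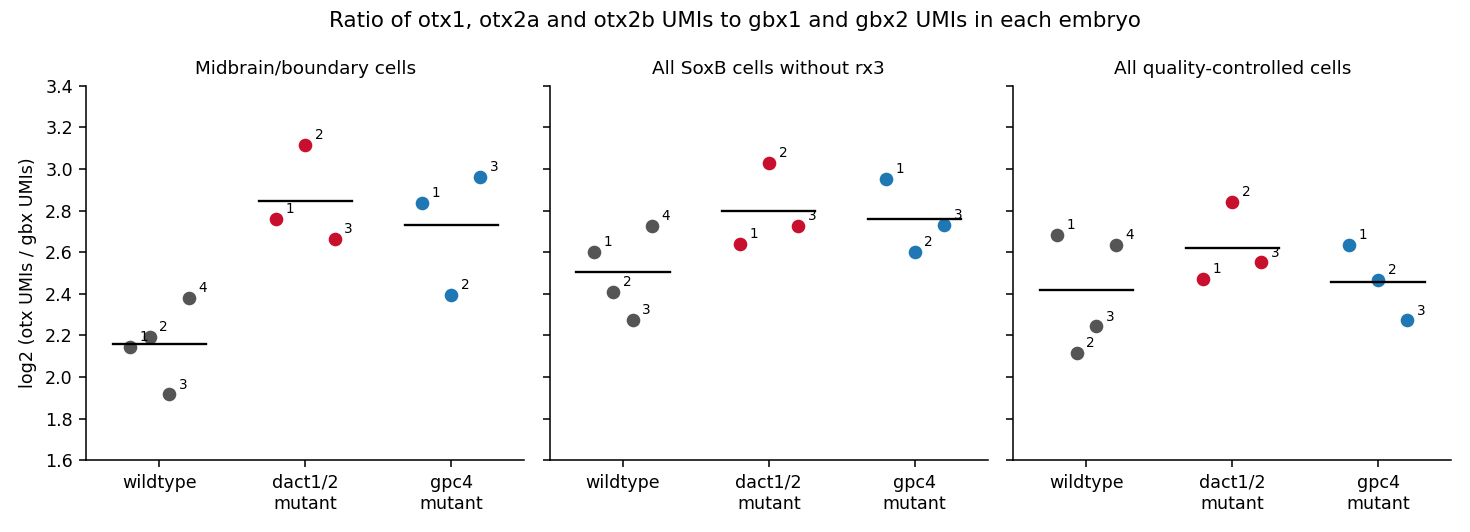
The log2 ratio of otx UMIs to gbx UMIs in each embryo, in midbrain/boundary cells (left), in all SoxB cells without rx3 (middle) and in all quality-controlled cells (right). Numbers are replicates and bars are group means. The mutants lie between 2.40 and 3.12 in the left panel, above the wildtype range of 1.92 to 2.38, and the groups overlap in the other panels.

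The targeted genes were examined next. gpc4 was at 57.2, 48.3, 45.4 and 56.4 CPM in the chosen cells of wildtype replicates 1 to 4 and at 12.7, 16.4 and 15.11 CPM in gpc4 mutants, where it fell (log2 fold change −1.69 ± 0.18 (SE), adjusted p = 0.00161 by edgeR). The dact1/2 mutants lay above the gpc4 mutants and overlapped wildtype, at 31.4, 48.9 and 37.1 CPM, and did not pass the test (−0.25, edgeR adjusted p = 0.662). dact1 had 44 UMIs in all chosen cells, which is too few for a test, and lay between 0.427 and 2.71 CPM in wildtype, 0.474 and 1.11 CPM in dact1/2 mutants and 1.43 and 3.02 CPM in gpc4 mutants. dact2 was at 18.8 to 36.6 CPM in wildtype and 16.3 to 23.8 CPM in dact1/2 mutants (−0.15, edgeR adjusted p = 0.863). A stop in a coding exon need not lower the RNA, so these counts check only part of the labels.

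In dact1/2 mutants 35 of 9149 genes were called (0.383%), 22 higher and 13 lower. With all 4 wildtype embryos 1 of 9323 was called (0.0107%), BX284696.1. Leaving out 1 embryo gave 10, 11 and 20 calls without wildtype replicates 2, 3 and 4, and 63, 298 and 29 without dact1/2 replicates 1, 2 and 3, so the count rests on single embryos. None of the 11 midbrain, 12 boundary, 8 rhombomere 1, 16 Fgf pathway, 17 Wnt beta-catenin pathway, 24 planar polarity and 14 SoxB genes tested was called. Their median log2 fold changes lay between −0.16 (Wnt beta-catenin pathway) and 0.22 (midbrain), against 0.00 (−0.00115) over all genes. For example her5 was at 0.44 ± 0.23 (edgeR adjusted p = 0.545), pax5 at −0.11 ± 0.22 (adjusted p = 0.898), the Fgf target spry4 at −0.27 ± 0.14 (adjusted p = 0.542) and the Wnt target axin2 at −0.06 ± 0.16 (adjusted p = 0.930).

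Single genes with other known roles were called in dact1/2 mutants. The LIM homeobox gene lhx5, of the diencephalon and known to promote forebrain fate, was at 8.42, 18.2 and 12.2 CPM in dact1/2 mutants and 4.70, 3.75 and 4.98 CPM in wildtype replicates 2 to 4 (log2 fold change 1.6 ± 0.32, edgeR adjusted p = 0.0754). Wildtype replicate 1, at 10.2 CPM, lay among the mutants. The purinergic receptor gene p2rx4b was at 17.1, 12.9 and 17.0 CPM in wildtype replicates 2 to 4 and 2.13, 2.21 and 4.57 CPM in dact1/2 mutants (−2.40 ± 0.32, edgeR adjusted p = 0.00866), and at 1.69 CPM in wildtype replicate 1. The glutathione peroxidase gene gpx1b was at 11.6, 16.6 and 20.8 CPM in dact1/2 mutants, above all 4 wildtype embryos (2.5 to 7.46 CPM), with a log2 fold change of 1.88 ± 0.34 (edgeR adjusted p = 0.0508).

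Other genes that were higher in dact1/2 mutants were zgc:65851 (2.60), the polycystin gene pkd1b (1.89), szl, which encodes the Bmp feedback inhibitor Sizzled (2.12), the glycoprotein gene thy1 (1.75), mdkb (0.96), the proton pump subunit gene atp6v0e1 (0.87) and the small heat shock protein gene hspb1 (1.06). Lower were the cytoskeletal gene ablim1b (−3.64), si:ch211-209j10.6 (−2.97), znf1118 (−2.09), naxe (−2.05) and arhgef10la (−1.32). BX284696.1 had 1 UMI in wildtype replicates 2 to 4 and 125 in the mutants, a ratio of 63.8 per summed UMI (95% counting interval 11.2 to 2538), and si:dkey-9c18.3 had 52 and 1, a ratio of 102 in the other direction (17.5 to 4103). In wildtype replicate 1 si:dkey-9c18.3 was at 0.339 CPM, as low as in the mutants. The ribonucleotide reductase symbol rrm2 belongs to 2 gene entries, of which one was higher (1.02) and the other lower (−2.38) in the mutants. The lower entry also varied within a genotype, at 76.3, 0.714 and 165 CPM in gpc4 mutants. Whether reads were split between copies was not tested, and both calls are uncertain.

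In gpc4 mutants 67 of 9315 genes were called (0.719%), 33 higher and 34 lower, and with all 4 wildtype embryos 4 of 9488 (0.0422%): gpc4, aga, CR847906.1 and zgc:174154. Without wildtype replicates 2, 3 and 4 there were 10, 24 and 35 calls, and without gpc4 replicates 1, 2 and 3 there were 107, 117 and 81. The lysosomal enzyme gene aga was at 162, 153 and 135 CPM in gpc4 mutants against 9.17 to 16.3 CPM in wildtype and 10.2 to 12.7 CPM in dact1/2 mutants (log2 fold change 3.92 ± 0.20, edgeR adjusted p = 1.56e-06). The enzyme gene qdpra, of tetrahydrobiopterin recycling, was at 38.3, 42.9 and 70.3 CPM against 5.13, 7.50 and 2.07 CPM in wildtype replicates 2 to 4 (3.37 ± 0.35, edgeR adjusted p = 0.00161), with wildtype replicate 1 at 26.4 CPM. The chemokine gene cxcl14, one of the leading genes of the chosen cells, was at 71.6, 98.6 and 90.7 CPM against 36.3, 27.1 and 37.3 CPM (1.43 ± 0.17, edgeR adjusted p = 0.00284), and at 1.69 CPM in wildtype replicate 1. CR847906.1 was at 24.1, 16.4 and 11.3 CPM, below all 4 wildtype embryos (100 to 133 CPM), with a log2 fold change of −2.55 ± 0.26 (edgeR adjusted p = 0.00161).

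Some other genes called lower in gpc4 mutants had wildtype replicate 1 on the mutants' side. The neuronal RNA-binding protein gene elavl4 was at 1.74, 2.5 and 0.755 CPM against 8.12, 10.4 and 11.2 CPM in wildtype replicates 2 to 4 (log2 fold change −2.32 ± 0.39, edgeR adjusted p = 0.0280), and the growth cone gene gap43 was at 1.49, 2.5 and 0.755 CPM against 9.83, 7.08 and 7.88 CPM (−2.15 ± 0.41, edgeR adjusted p = 0.0590). Wildtype replicate 1 was as low as the mutants for both, at 0.339 CPM of elavl4 and 1.69 CPM of gap43. No gene of the Notch and proneural list was called (0 of 27, median −0.07). These 2 genes were picked from the calls after their values were seen, and the related neuronal gene elavl3 was at 110, 235 and 74.0 CPM in gpc4 mutants against 215, 112 and 202 CPM in wildtype replicates 2 to 4 (−0.26, edgeR adjusted p = 0.824). Also lower were the ribosome assembly gene nop14 (−1.79), the zinc transporter gene slc39a13 (−1.86), dab2ipa (−2.38), spata4 (−3.68), si:dkey-22l11.6 (−1.95) and FQ312024.1 (−1.10). For spata4, wildtype replicate 1 was at 8.13 CPM, near the other wildtype embryos (8.75 to 15.0 CPM) and above the gpc4 mutants (0 to 1.51 CPM). Also higher were hspb1 (1.09), zgc:174154 (3.92), si:dkey-12j5.1 (1.32), szl (2.43) and mdkb (1.08).

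Of the pathway lists in gpc4 mutants, 1 of 8 rhombomere 1 genes (gbx2) and 1 of 24 planar polarity genes (gpc4 itself) were lower and none was higher. None of 11 midbrain, 13 boundary, 17 Fgf pathway, 17 Wnt beta-catenin pathway and 14 SoxB genes was called. List medians lay between −0.29 (SoxB) and 0.02 (planar polarity), against 0.00 (0.00337) over all genes. her5 was at 0.52 ± 0.24 (edgeR adjusted p = 0.476), pax5 at −0.48 ± 0.25 (adjusted p = 0.527), etv4 at 0.00 ± 0.19 (adjusted p = 0.997) and sox2 at −0.41 ± 0.20 (adjusted p = 0.511). The calpain gene capn8 was at 0.23 (edgeR adjusted p = 0.833) in gpc4 mutants and 1.06 (adjusted p = 0.250) in dact1/2 mutants, and smad1 at −0.25 (adjusted p = 0.665) and −0.63 (adjusted p = 0.299). Levels of capn8 were 3.05 to 16.7 CPM in the 4 wildtype embryos and 12.1 to 16.2 CPM in gpc4 mutants. In dact1/2 mutants they were 19.6 to 29.4 CPM, with no overlap with either group, though capn8 was not called.

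**Figure D5:**
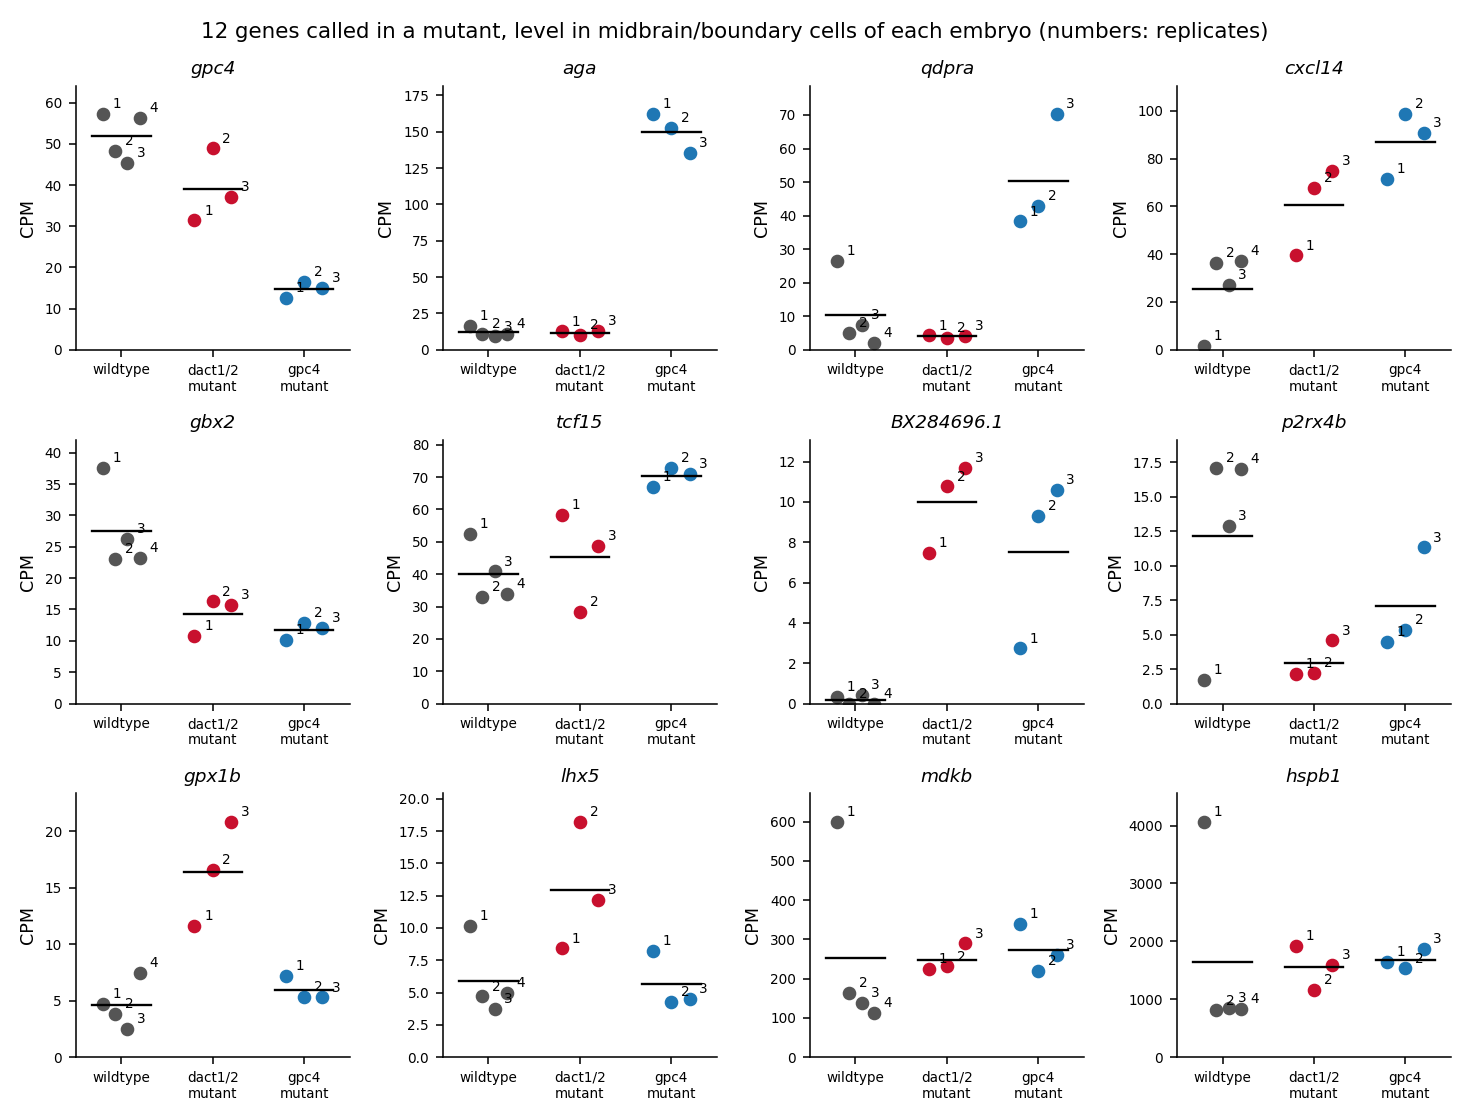
Levels (CPM) in midbrain/boundary cells of each embryo for 12 genes that were called in a mutant. Numbers are replicates and bars are group means over all embryos shown. aga lies at 135 to 162 CPM in gpc4 mutants and at most at 16.3 CPM elsewhere, gbx2 is lower in all 6 mutants than in wildtype, and wildtype replicate 1 lies far from the other wildtype embryos for cxcl14, p2rx4b, mdkb and hspb1.

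Genes of other tissues and of stress were also measured in the chosen cells. The paraxial mesoderm factor gene tcf15 was at 67.1, 72.9 and 71.0 CPM in gpc4 mutants, above wildtype (32.9 to 52.5 CPM), with a log2 fold change of 1.04 ± 0.16 (edgeR adjusted p = 0.0183), and the protease gene ctslb, known from the prechordal plate, was called at 1.85. All 11 genes of the paraxial and tail bud mesoderm list had positive values in gpc4 mutants, with a median of 0.90 and 1 call. The 8 tested genes of the lateral plate, heart and blood list were all positive too (median 0.99). So were all 10 spinal cord and caudal neural genes (0.41) and all 7 notochord and prechordal plate genes (0.46). Of 16 forebrain and eye field genes 14 were negative (−0.32). In dact1/2 mutants 10 of 11 paraxial genes (0.51) and 5 of 5 lateral plate genes (0.53) were positive. Of the 13 genes of the lateral plate list, 8 passed the filter in gpc4 mutants and 5 in dact1/2 mutants, against the same wildtype embryos. Genes can pass this filter through the group where they are high, so the signs of this list are a description only. The median chosen cell had 0 UMIs of it. The summed paraxial and tail bud level was 283 to 517 CPM in wildtype replicates 2 to 4 and 738 CPM in wildtype replicate 1. It was 361 to 605 CPM in dact1/2 mutants and 588 to 769 CPM in gpc4 mutants. Summed notochord and prechordal plate genes were at 149 to 202 CPM in wildtype, 207 to 256 CPM in dact1/2 mutants and 231 to 272 CPM in gpc4 mutants. The 11 stress genes summed to 916 to 961 CPM in wildtype replicates 2 to 4, 4156 CPM in replicate 1, 1285 to 2034 CPM in dact1/2 mutants and 1668 to 1983 CPM in gpc4 mutants, mostly hspb1, at 808 to 852, 4067, 1162 to 1927 and 1534 to 1864 CPM in the same order. The median mitochondrial share of the chosen cells' UMIs was 0.705 to 0.911% in gpc4 mutants, 0.948 to 1.09% in dact1/2 mutants and 0.938 to 1.34% in wildtype, with no overlap between gpc4 mutants and wildtype (exact permutation p = 0.0571). Wildtype replicate 1 lay within the gpc4 range for the paraxial sum and above every mutant for the stress sum. The part of these in the calls above was not tested.

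The mutants were also compared with each other, without wildtype. Of 9831 genes 17 were called (0.173%), 12 higher in dact1/2 mutants and 5 higher in gpc4 mutants. Without gpc4 replicate 1 there were 31 calls, without gpc4 replicate 2 there were 9 and without dact1/2 replicate 3 there were 11. The 5 higher in gpc4 mutants were aga (−3.59), qdpra (−3.52), the cytochrome gene cyp4v7 (−4.67), si:dkey-165a24.10 (−2.33) and one of the entries of the histone symbol hist1h4l (−3.60). Higher in dact1/2 mutants were gpc4 (1.44), DHRS11 (3.32), si:ch211-191j22.3 (1.64), si:dkey-22l11.6 (2.30), zgc:65851 (2.09), spata4 (3.98) and the ferritin gene fthl31 (2.25), among others. BX511021.1 had 0 UMIs in gpc4 mutants and was at least 37.2-fold higher in dact1/2 mutants than the floor of 3 counts over the group. No gene of the midbrain, boundary, rhombomere 1, Fgf or Wnt beta-catenin lists was called.

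Both mutants against wildtype replicates 2 to 4 shared 6 calls in the same direction, mdkb, hspb1, szl and si:ch73-144d13.4 higher and ablim1b and arhgef10la lower. These are 17.1% of the 35 calls and 8.96% of the 67, and both comparisons used the same 3 wildtype embryos. In wildtype replicate 1 the level of mdkb was 600 CPM, against 113 to 164 CPM in the other wildtype embryos, 226 to 290 CPM in dact1/2 mutants and 220 to 339 CPM in gpc4 mutants. For hspb1, szl (27.1 CPM) and arhgef10la (1.02 CPM) it likewise lay on the mutants' side of the other wildtype embryos. si:ch73-144d13.4 had 0 UMIs in wildtype replicates 2 to 4, so that it was at least 21.6-fold higher in dact1/2 and at least 30.1-fold higher in gpc4 mutants than a floor of 3 counts over the group, while wildtype replicate 1 had 27.1 CPM.

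The calls were set beside those of sums over all cells, which include the chosen cells and come from the same embryos. In these sums 276 of 14308 genes were called in dact1/2 mutants (1.93%) and 346 of 14437 in gpc4 mutants (2.4%). Of the 35 calls of the chosen cells 31 were among the first, and of the 67 calls 47 were among the second. Whether the response of the chosen cells differed from that of the other SoxB cells was tested as an interaction with the embryo as a block. In dact1/2 mutants edgeR called 0 of 12085 genes, with 402 at an unadjusted p under 0.05, and in gpc4 mutants 0 of 11768, with 477. DESeq2 called 0 in both, with 42 and 65 at an unadjusted p under 0.05. In the second test there were 29 calls without gpc4 replicate 3, 12 without wildtype replicate 4, 4 without wildtype replicate 2 and 1 without each of the others. In the first there were 2 without wildtype replicate 2, and 1 without dact1/2 replicate 1 or 3.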

How the data were processed

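Each library held the dissociated cells of 1 embryo, made with a 10x 3′ kit. The authors aligned and counted reads with Cell Ranger 6.1.0 on GRCz11 and deposited filtered matrices of UMI counts per gene and cell, not normalized. Droplets were kept here from 1500 UMIs and 750 genes up, where mitochondrial UMIs stayed under 5%. The study's further criterion on genes per UMI was an alternative. No cell annotation was used, no doublet caller was run and no cell was removed as a doublet.

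UMIs of the chosen cells were summed per embryo. Sums were tested with edgeR 4.0.16 (TMM, filterByExpr, quasi-likelihood test, Benjamini-Hochberg adjustment over all genes tested) in R 4.3.3, with calls at an adjusted p below 0.1 and a log2 fold change beyond 0.58 either way, the study's thresholds. Wildtype replicates 2 to 4 entered, as in a heatmap of the study. DESeq2 1.42.0 was an alternative. SE is the absolute log2 fold change over the square root of F. Shares and ratios used all 4 wildtype embryos and two-sided exact permutation tests over all splits of the embryos. Exact binomial intervals came from scipy 1.17.1. The fits were tested on simulated data. Wildtype embryos are shared by both mutant comparisons, and p-values measure the spread between embryos.

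The members, the 23 gene lists (326 of 332 symbols found) and the tests were chosen with earlier results of these data known. The text names the rule genes, called list genes, list genes with at least 200 UMIs, per direction the 8 calls of smallest p without overlap and with at least 20 UMIs (10 between gbx and otx classes, on p alone), the 25 leading and lowest genes, and genes the study discusses. A few further genes were chosen after their values were seen: pax8, the regional genes egr2b, mafba, fezf2 and six3b in the chosen cells as a whole, and the genes elavl3, elavl4, gap43, lhx5 and thy1. Alternatives were other wildtype sets, stricter or thinned rules, filters, size factors, embryos left out and the replicate number as a block. Some genes that this rule names are not reported here.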

Additional observations from a re-analysis of the deposited data

Results flagged for a closer look

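Among 49 groups of 4 wildtype values tested with Dixon's criterion, 9 held a sample far from the others, where chance flags about 1 in 20 groups. Most of these genes were named because they were called against wildtype replicates 2 to 4, which favours close values in those 3 embryos, so that rate does not apply to wildtype replicate 1. In 8 of the 9 groups that sample was wildtype replicate 1. Its wnt1 was 11.5 CPM (others 3.33 to 4.56), zgc:65851 was 63.0 CPM (2.49 to 5), si:ch73-144d13.4 was 27.1 CPM (0 in the others) and szl was 27.1 CPM (2.07 to 5.83). Its mdkb was 600.1 CPM (113 to 164) and hspb1 4067 CPM (808 to 852). Its level of the rrm2 entry ENSDARG00000020711 was 0 CPM (119 to 135), and dab2ipa was 1.35 CPM (19.2 to 20.8). The remaining one was DHRS11 in wildtype replicate 3, at 7.08 CPM (0.339 to 1.24). The cause was not tested.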

How the results depend on the processing

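No result that passed its test changed sign, but the share differences, which had not passed, did: in dact1/2 mutants without other classes, and in gpc4 mutants over SoxB cells and without gpc4 replicate 3 (values below). Calls in the chosen cells of dact1/2 mutants (35) were 1 with all 4 wildtype embryos, 1 with the thinned rule, 6 without cells holding genes of another class, 72 with the study's further quality criterion, 359 with no filter and 10 to 298 with 1 embryo left out. Calls in gpc4 mutants (67) were 4, 4 and 17 under the first 3 of these, 455 with no filter and 10 to 117 with 1 embryo left out. Between the mutants (17) they were 7 with the thinned rule, 8 without cells of another class, 65 with the further criterion, 261 with no filter, 46 with DESeq2 and 9 to 31 with 1 left out. The interaction (0) gave 15, 3, 1 and 33 calls in dact1/2 mutants (thinned, without other classes, further criterion, no filter; 0 to 2 with 1 left out) and 12, 8, 7 and 78 in gpc4 mutants (1 to 29 with 1 left out), where at least 3 markers gave 3. Between gbx and otx classes (66) there were 38 with at least 3 markers, 11 thinned, 11 without other classes and 200 with no filter. The cause was not tested.

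Same-numbered embryos correlated at −0.0578 to 0.0639 between wildtype and dact1/2 mutants, 0.00937 to 0.152 between wildtype and gpc4 mutants and 0.0980 to 0.591 between mutants. Between mutants, embryos of different numbers correlated at −0.519 to 0.201. The best match had the same number for 5 of 6 embryos between mutants. This was 5 of 6 between wildtype and gpc4 mutants and 3 of 6 between wildtype and dact1/2 mutants. The main tests did not take numbers as pairs, and a shared effect of the number was not tested. A replicate block gave 237 calls in dact1/2 mutants, 422 in gpc4 mutants and 240 between mutants, and with all 4 wildtype embryos 0 and 6. With wildtype replicates 2 to 4, number 1 held only a mutant and number 4 only a wildtype embryo. Only numbers 2 and 3 then held pairs, and little was left to measure the spread between embryos. Between mutants every number held a pair, but that fit also rested on few embryos. The larger counts are therefore not read as more changed genes.

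The share difference in dact1/2 mutants was 4.04 points of SoxB cells, −0.24 without other classes and 1.51 with the further criterion. The first and last had an exact permutation p = 0.0286, not adjusted, the same value as the otx to gbx ratios before adjustment. In gpc4 mutants it was 1.1 of SoxB cells, −0.64 without other classes (exact permutation p = 0.0286), and −0.78 to 0.15 with 1 left out. The otx to gbx difference was 0.80 and 0.52 (dact1/2 and gpc4) with at least 3 markers, 1.68 and 1.78 thinned, 0.29 and 0.26 over SoxB cells, 0.20 and 0.039 over all cells, 0.68 and 0.57 with wildtype replicates 2 to 4 (p = 0.1, the smallest an exact test of 3 against 3 can give), and 0.55 to 0.78 and 0.46 to 0.74 with 1 left out. Few gbx and wnt1 UMIs limit these values.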
